A study of Noccaea goesingensis with 12 samples.

Results

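Roots of *Noccaea goesingensis*, a nickel hyperaccumulator of the mustard family, were compared between a metallicolous (TM) and a non-metallicolous (NTM) ecotype grown without added Ni. The authors deposited a table of 4460 genes for this comparison. A gene was described here when its higher group value was at least 10 FPKM (fragments scaled by gene length and library size, the unit of the methods, while the files head the column TPM, which was not settled) and its log2 ratio, formed as (TM + 1) over (NTM + 1), was at least 1 in size. Of the 4460 genes, 1712 (38.4%) met both thresholds, with 734 higher in the TM ecotype (16.5% of the table) and 978 lower (21.9%). The ecotype comparisons without and with Ni together list 5273 genes, and a gene that is not listed without Ni was not measured here.

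The TM ecotype was represented by 4 libraries of untreated plants from a serpentinite population, and the NTM ecotype by 3 libraries of untreated plants from a dolomite population, with RNA of 5 plants combined in each library. These library numbers are those of the labels. The methods state the same number of samples for every group and fewer frozen plants than the TM control libraries would need, and the difference was not settled. Each ecotype is thus 1 population. The study's methods describe pots of sand and perlite, and controls watered with a nutrient solution that held no Ni, while the sample labels name substrate of a mine dump mixed with sand, so the metal content of the control substrate was not settled. The Ni-treated roots of the TM ecotype (2 libraries) and of the NTM ecotype (3 libraries) are used below only to set values side by side, and by the paper's supplementary read counts a single NTM Ni library was far shallower than all others. The deposited files hold 1 value per group and no counts per gene, so the number of reads behind a value is unknown. No error or test can be given for any gene, and every difference below is between 2 single values. In whole roots, fewer cells of a type and less RNA per cell cannot be told apart.

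Every listed gene had already been selected by the authors' own test of the same contrast. The ratios therefore describe the genes in the table and are no independent evidence that the ecotypes differ. The smallest ratios in the table were 0.55 among the genes higher in the TM ecotype and -0.54 among those lower in it, so genes with smaller differences are missing from every list below.

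Metal hyperaccumulators are known for moving metals from the root into the xylem and on to the shoot, where the metal is stored in vacuoles. In *A. thaliana*, the relative to whose genome the reads were aligned, ATPases of the HMA family and ferroportin-like IREG proteins export metals from root cells or into vacuoles. The endodermis, sealed by the Casparian strip and by suberin, forces solutes through these transporters. The files give *A. thaliana* identifiers without names. The paper pairs 29 genes with an identifier, of which 13 were listed without Ni and 11 met both thresholds. All other names and roles below are general knowledge of *A. thaliana* genes for the identifiers printed beside them, and could not be checked against an annotation here.

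Among the genes past both thresholds, those of the list for iron homeostasis had higher values in TM roots. So did the xylem loading genes of the metal transport list, which as a whole had 5 higher and 2 lower. Anthocyanin genes of the phenylpropanoid list, with 3 higher and 2 lower as a whole, were higher too. Xylem loading and anthocyanin genes were not set up as lists of their own. Vacuolar metal transporters went both ways. Genes of the Casparian strip and suberin and of rapid stress signalling had lower values in TM roots, as did ethylene genes except *ERF5*. Among the 734 genes higher in the TM ecotype the median log2 ratio was 1.35, and among the 978 genes lower in the TM ecotype it was -1.41. A ratio of at least 2 was reached in size by 110 genes higher and 192 genes lower in TM roots, and one of at least 3 by 28 genes higher and 56 lower. The higher of both values was at least 100 FPKM for 109 genes higher in the TM ecotype and for 176 genes lower in it. The plot of TM against NTM levels shows the genes in 2 bands on either side of equality.

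**Figure D1:**
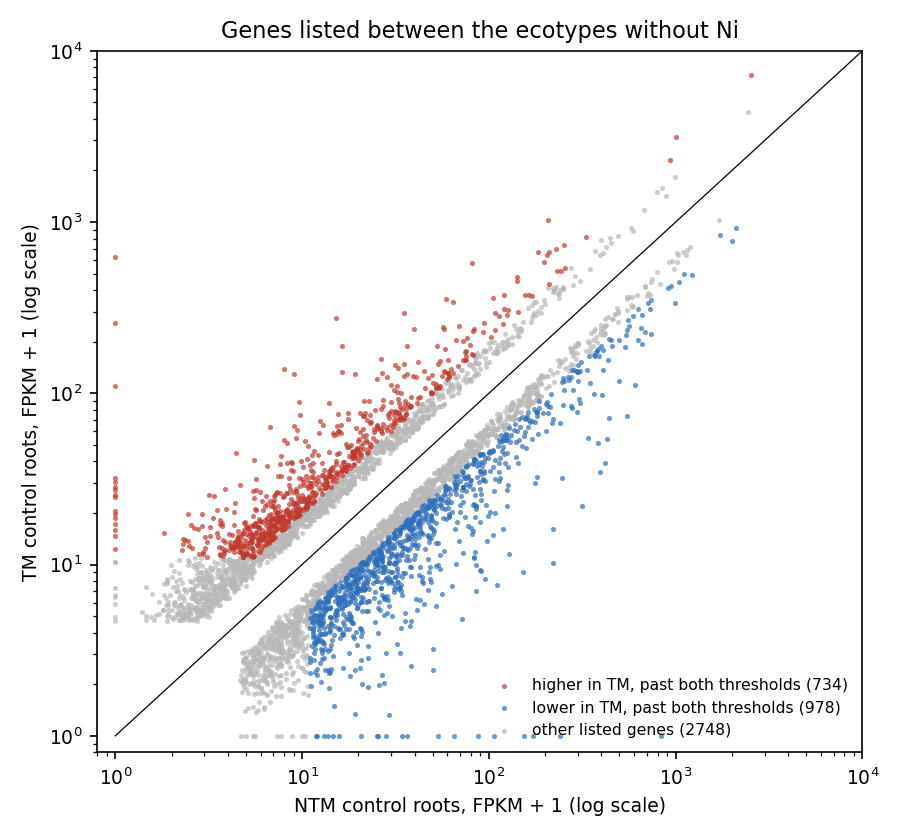
Level of each of the 4460 listed genes in TM control roots (vertical axis) against NTM control roots (horizontal axis), in FPKM + 1 on log scales, with 1 point per gene, each the authors' single group value. Red points are the 734 genes past both thresholds that were higher in the TM ecotype, blue points the 978 that were lower, and grey points the 2748 other listed genes. The line marks equal levels, and the empty band along it is where the table holds no gene, between ratios of -0.54 and 0.55.

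At the ratio threshold, the genes nearest to it on the TM-higher side had ratios of 1.00 (15.8 FPKM in TM roots and 7.42 FPKM in NTM roots) just inside and 0.9995 (24.9 FPKM in TM roots and 11.9 FPKM in NTM roots) just outside. On the TM-lower side they had -1.0019 (32.0 FPKM in TM roots and 65.1 FPKM in NTM roots) just inside and -0.9991 (6.42 FPKM in TM roots and 13.8 FPKM in NTM roots) just outside. The level threshold of 10 FPKM left out 590 genes with a ratio past 1, and 1800 genes with enough signal had a smaller ratio.

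Gene lists for functions of the root were set up by identifier. They hold 448 genes, of which 138 were listed without Ni and 63 met both thresholds. Among all genes listed, 44.5% were higher in the TM ecotype and 55.5% lower, with a median log2 ratio of -0.68, and the lists are set beside these values. Multiplying TM values by 1.64, so that the median TM over NTM ratio of the table became 1, shifted ratios by up to 0.71 and gave 1777 genes higher and 326 lower past both thresholds. The table holds only selected genes, so its median need not be that of all genes. Listed ratios leave a gap around equality, and more genes were lower, so the median fell among the lower genes. Scaling to it can only raise a ratio, and the gain of higher genes follows from that. The counts past both thresholds after this scaling are given with the groups below as a description, not as a check of the deposited scaling.

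**Figure D2:**
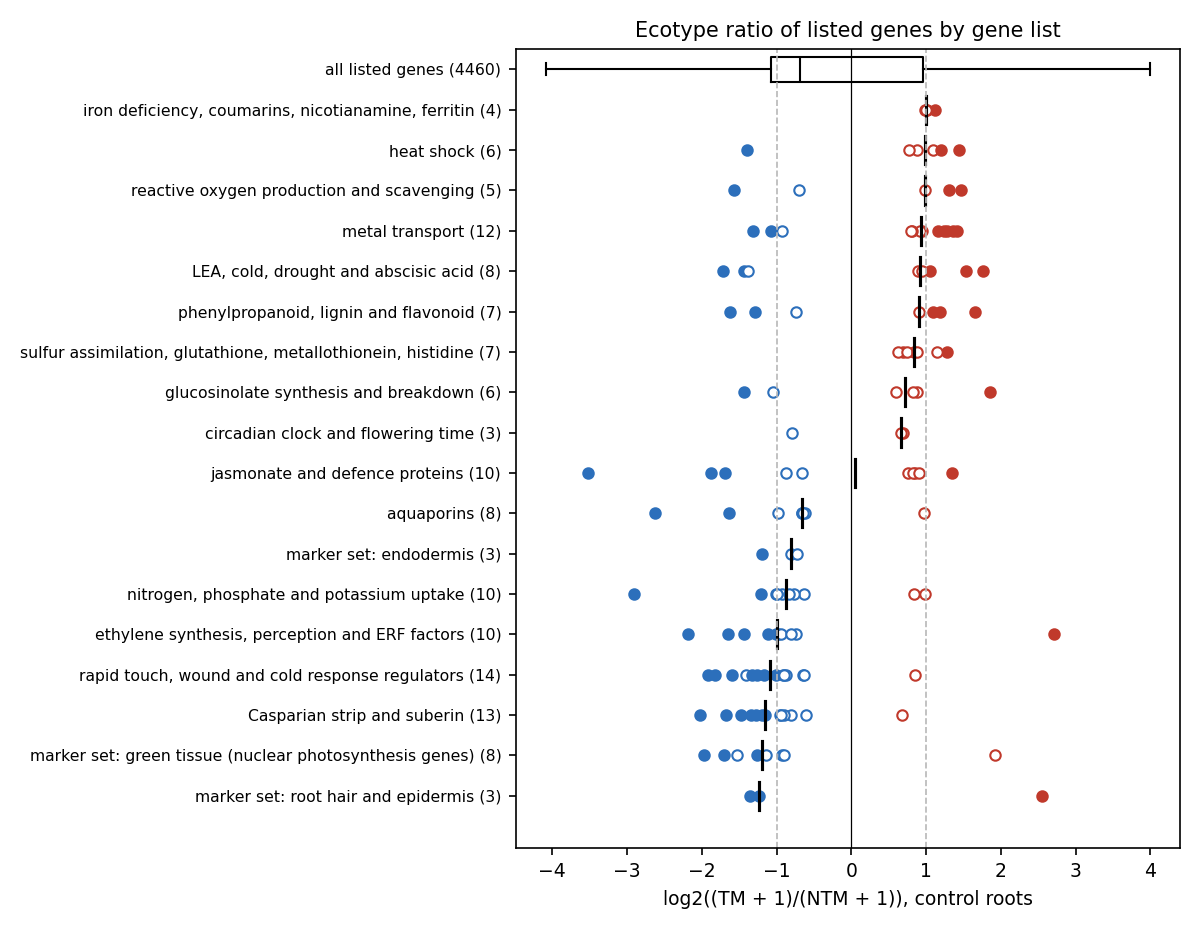
Log2 ratio of TM over NTM in control roots (horizontal axis, with 1 FPKM added to each value) for the listed genes of each list or marker set with at least 3 of them, ordered by median. Each circle is a gene, filled when it met both thresholds and open otherwise, red when higher and blue when lower in the TM ecotype, with a black bar at the list's median, and the box in the top row gives the median and quartiles of all 4460 genes, with whiskers to the last gene within 1.5 times the interquartile range. The iron list has the highest median (1.00), and the Casparian strip and suberin list lies at -1.15 with 12 of 13 genes left of 0.

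The listed genes of metal transport, taken as a whole, were mostly higher in the TM ecotype. Of 44 metal transport genes 12 were listed, 9 of them higher and 3 lower in the TM ecotype, with a median log2 ratio of 0.93. Both thresholds were met by 5 genes higher and 2 lower, which is 58.3% of the listed genes of this list beside 38.4% of the table. After the median scaling 9 were past the thresholds on the higher side and 0 on the lower. *HMA4* (AT2G19110, chromosome 2 from 8278881 to 8286445), a plasma membrane ATPase that loads zinc and cadmium into the xylem, stood at 44.6 FPKM in TM roots and 17.7 FPKM in NTM roots (log2 ratio 1.28). Its close relative *HMA2* (AT4G30110) stood at 18.5 FPKM in TM roots and 7.25 FPKM in NTM roots (log2 ratio 1.24). *IREG1* (AT2G38460, chromosome 2 from 16103311 to 16106177), an exporter that loads iron into the xylem, had 55.2 FPKM in TM roots and 20.1 FPKM in NTM roots (log2 ratio 1.41).

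*IREG2* (AT5G03570), which moves Ni and cobalt into root vacuoles, was also higher, with 11.0 FPKM in TM roots and 3.67 FPKM in NTM roots (log2 ratio 1.36), and its level was the lowest among these exporters in both ecotypes. The vacuolar calcium exchanger gene *CAX1* (AT2G38170) had the highest level among the metal transport genes past both thresholds, at 125 FPKM in TM roots and 55.4 FPKM in NTM roots (log2 ratio 1.16). The 2 genes lower in the TM ecotype also encode vacuolar transporters. *MTP8* (AT3G58060), for manganese, stood at 4.57 FPKM in TM roots and 12.9 FPKM in NTM roots (log2 ratio -1.32), and *ZIF1* (AT5G13740), which carries the metal chelator nicotianamine into vacuoles, at 4.96 FPKM in TM roots and 11.6 FPKM in NTM roots (log2 ratio -1.08).

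Among the listed metal transport genes under the ratio threshold were the zinc uptake genes *IRT3* (AT1G60960), with 50.3 FPKM in TM roots and 26.1 FPKM in NTM roots (log2 ratio 0.92), and *ZIP4* (AT1G10970), with 31.0 FPKM in TM roots and 15.6 FPKM in NTM roots (log2 ratio 0.95). The copper exporter gene *HMA5* (AT1G63440) had a ratio of 0.81, and the copper uptake gene *COPT1* (AT5G59030) one of -0.93. The iron transporter genes *IRT1* (AT4G19690) and *IRT2* (AT4G19680) were not listed without Ni.

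Of 22 genes of iron deficiency regulation, coumarins, nicotianamine synthesis and ferritin only 4 were listed, and each had the higher value in the TM ecotype. *PYE* (AT3G47640), a transcription factor of the iron deficiency response, stood at 49.4 FPKM in TM roots and 22.2 FPKM in NTM roots (log2 ratio 1.12). The iron storage gene *FER3* (AT3G56090), a ferritin, had 32.3 FPKM in TM roots and 15.4 FPKM in NTM roots (log2 ratio 1.02). The other 2 lay just under the threshold, with 0.99 for the regulator *bHLH39* (AT3G56980) and 0.99 for *BGLU42* (AT5G36890), a glucosidase that releases coumarins from roots. Both thresholds were met by 2 of the 4 (50%, beside 38.4% of the table), and with the median scaling by all 4.

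Of 27 genes of sulfur assimilation 7 were listed, all 7 with higher values in the TM ecotype and a median log2 ratio of 0.84. Only 1 of the 7 met both thresholds (14.3%, beside 38.4% of the table). This was *SERAT2;1* (AT1G55920), a serine acetyltransferase that makes the precursor of cysteine, with 47.1 FPKM in TM roots and 18.7 FPKM in NTM roots (log2 ratio 1.28). The ATP sulfurylase genes *APS1* (AT3G22890), *APS3* (AT4G14680) and *APS4* (AT5G43780), which encode the entry step of the pathway, had ratios of 0.70, 0.74 and 0.88. *APS4* was the highest of them, with 1833 FPKM in TM roots and 993 FPKM in NTM roots. The metallothionein gene *MT3* (AT3G15353) had the highest level of the list, at 4373 FPKM in TM roots and 2449 FPKM in NTM roots (log2 ratio 0.84). Genes of histidine and phytochelatin synthesis in this list were not listed without Ni. All 7 were past both thresholds once the median scaling was applied.

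Antioxidant genes differed in both directions, with 5 of 13 listed. *APX1* (AT1G07890, chromosome 1 from 2437330 to 2439665), the cytosolic ascorbate peroxidase that removes hydrogen peroxide, was among the most abundant genes past the thresholds, with 820.2 FPKM in TM roots and 331 FPKM in NTM roots (log2 ratio 1.305). *APX2* (AT3G09640), its close paralogue, stood at 539 FPKM in TM roots and 273 FPKM in NTM roots (log2 ratio 0.98). Reads of such close copies can be split between them in an alignment to another species, and this was not tested. Superoxide dismutases showed opposite directions. The cytosolic form *CSD1* (AT1G08830), whose deposited locus spans 11409 bp, the longest of the 1712, had 228 FPKM in TM roots and 680.5 FPKM in NTM roots (log2 ratio -1.58), and the plastid form *CSD2* (AT2G28190) had 209.5 FPKM in TM roots and 75.5 FPKM in NTM roots (log2 ratio 1.46). The peroxisomal catalase gene *CAT2* (AT4G35090) had a ratio of -0.70, which turned direction under the median scaling. Past both thresholds were 2 higher genes and 1 lower, 60% of those listed beside 38.4% of the table. After that scaling 3 higher and 0 lower were past them.

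Genes of the endodermal barriers were nearly all lower in the TM ecotype. Of 25 genes of the Casparian strip and suberin 13 were listed, 12 lower and 1 higher, with a median log2 ratio of -1.15, and 7 met both thresholds, all of them lower (53.8% of those listed, beside 21.9% lower in the table). *CASP5* (AT5G15290, chromosome 5 from 4967011 to 4968035), which encodes a membrane scaffold of the Casparian strip, stood at 3.574 FPKM in TM roots and 17.64 FPKM in NTM roots (log2 ratio -2.03). *ESB1* (AT2G28670), a dirigent protein needed to build the strip, had 17.404 FPKM in TM roots and 57.9 FPKM in NTM roots (log2 ratio -1.68). The median scaling left 1 of the 13 genes, *CASP5*, past the thresholds on the lower side and 1, *ABCG6*, on the higher, with a median ratio of -0.49, and turned the direction of *FAR4*.

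The suberin genes past the thresholds were lower by similar ratios. *GPAT5* (AT3G11430), an acyltransferase that makes suberin monomers, stood at 20.9 FPKM in TM roots and 51.8 FPKM in NTM roots (log2 ratio -1.27), and its relative *GPAT7* (AT5G06090) at 11.5 FPKM in TM roots and 33.5 FPKM in NTM roots (log2 ratio -1.47). For the fatty acyl reductase gene *FAR5* (AT3G44550) the values were 14.2 FPKM in TM roots and 37.6 FPKM in NTM roots (log2 ratio -1.35). The transcription factor gene *MYB93* (AT1G34670), expressed in *A. thaliana* in the endodermis above new lateral roots, had 10.8 FPKM in TM roots and 25.3 FPKM in NTM roots (log2 ratio -1.15). *ABCG6* (AT5G13580), a transporter of suberin precursors, was the exception with 27.1 FPKM in TM roots and 16.6 FPKM in NTM roots (log2 ratio 0.67). The endodermis regulator *SCR* (AT3G54220) had a ratio of -0.72.

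**Figure D3:**
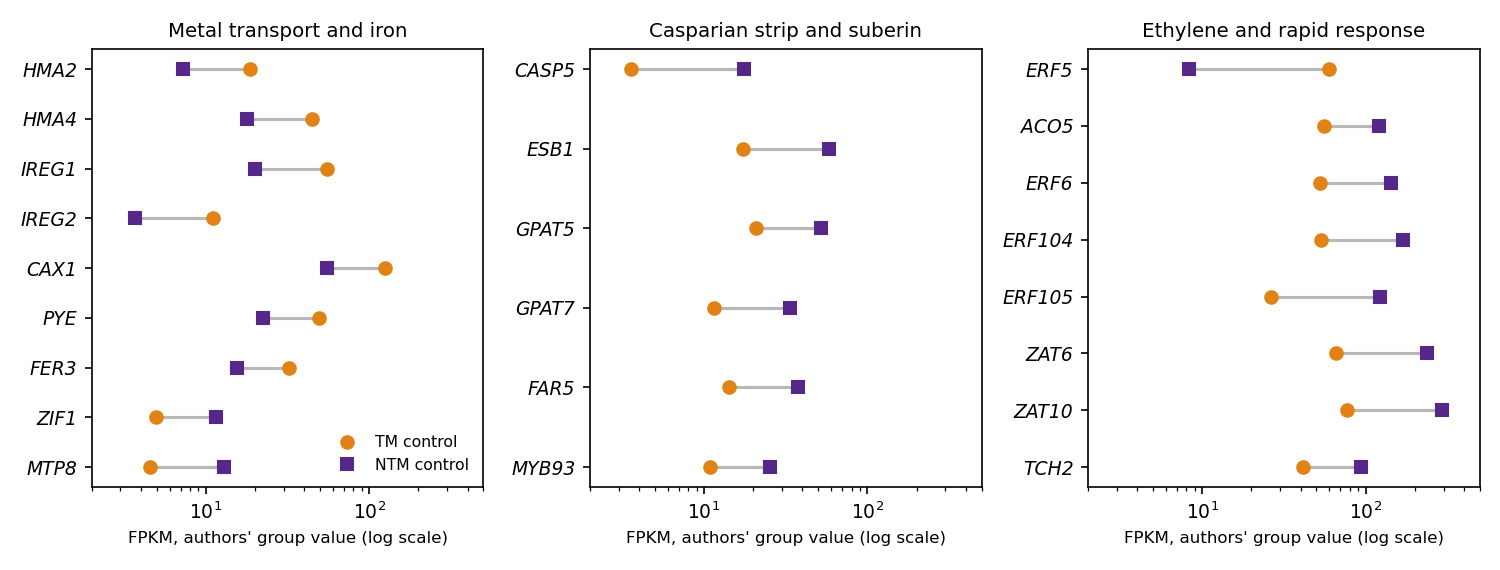
Levels of named genes past both thresholds in control roots (horizontal axis, FPKM on a log scale), with circles for the TM ecotype and squares for the NTM ecotype, each the authors' single group value without an error. In the left panel *HMA2*, *HMA4*, *IREG1*, *IREG2*, *CAX1*, *PYE* and *FER3* were higher and *ZIF1* and *MTP8* lower in the TM ecotype. In the middle panel all 6 barrier genes drawn were lower in the TM ecotype, and in the right panel *ERF5* alone was higher there.

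Among aquaporins, the channels for water, 8 of 22 were listed, with 1 higher and 7 lower in the TM ecotype, a split that became 5 higher and 3 lower under the median scaling. Their median log2 ratio of -0.66 was near that of all listed genes, -0.68. Both thresholds were met by 25% of the listed aquaporins, beside 38.4% of the table. The 2 past both thresholds were tonoplast channels. *TIP2;3* (AT5G47450) stood at 6.94 FPKM in TM roots and 48.1 FPKM in NTM roots (log2 ratio -2.63), and *TIP2;2* (AT4G17340) at 203 FPKM in TM roots and 629.6 FPKM in NTM roots (log2 ratio -1.63). The most abundant listed aquaporin, *TIP1;1* (AT2G36830), had 583 FPKM in TM roots and 919 FPKM in NTM roots (log2 ratio -0.66). The genes that turned were *TIP1;1*, *TIP2;1*, *PIP1;3* and *PIP1;5*, and 1 gene in each direction was then past both thresholds.

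For nitrogen, phosphate and potassium uptake, 10 of 26 genes were listed, 8 of them lower in TM roots. Both thresholds were met by 3 genes, all lower (30% of those listed, beside 38.4% of the table). *NRT1.8* (AT4G21680, chromosome 4 from 11511115 to 11519765), which takes nitrate back out of the xylem, had the largest difference of this list, with 10.0 FPKM in TM roots and 82.0 FPKM in NTM roots (log2 ratio -2.91). The nitrate reductase gene *NIA1* (AT1G77760) stood at 43.4 FPKM in TM roots and 88.8 FPKM in NTM roots (log2 ratio -1.01), and the phosphate signalling gene *SPX3* (AT2G45130) at 27.8 FPKM in TM roots and 65.4 FPKM in NTM roots (log2 ratio -1.21). Under the threshold were the high-affinity nitrate transporter gene *NRT2.1* (AT1G08090), at -0.93, and the phosphate transporter genes *PHT1;1* (AT5G43350) and *PHT1;2* (AT5G43370), at -0.77 and -0.83, which are near-identical copies. The glutamine synthetase gene *GLN1;3* (AT3G17820) had the higher value in the TM ecotype, with 788 FPKM in TM roots and 396 FPKM in NTM roots (log2 ratio 0.99). The median scaling turned *NRT1.5* and gave 2 genes past both thresholds on the higher side, in place of 0, and 1 on the lower, *NRT1.8*.

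Ethylene genes were mostly lower in the TM ecotype, with 10 of 35 listed and 9 of these lower (median log2 ratio -0.997). Both thresholds were met by 5 lower genes and 1 higher gene, 60% of those listed beside 38.4% of the table. After the median scaling they were met by 1 in each direction. *ACO5* (AT1G77330), which encodes the enzyme of the last step of ethylene synthesis, stood at 55.8 FPKM in TM roots and 122 FPKM in NTM roots (log2 ratio -1.11). The ethylene response factor gene *ERF105* (AT5G51190) had 26.3 FPKM in TM roots and 123 FPKM in NTM roots (log2 ratio -2.19), and *ERF104* (AT5G61600) had 53.1 FPKM in TM roots and 169 FPKM in NTM roots (log2 ratio -1.65). *ERF6* (AT4G17490), a further factor of this family, stood at 52.5 FPKM in TM roots and 144 FPKM in NTM roots (log2 ratio -1.43). *ERF11* (AT1G28370), a repressor of the same family, was at 9.41 FPKM in TM roots and 20.0 FPKM in NTM roots (log2 ratio -1.01). *ERF5* (AT5G47230), the nearest relative of *ERF6*, went the other way with 60.1 FPKM in TM roots and 8.35 FPKM in NTM roots (log2 ratio 2.71). By these single values *ERF6* was the more abundant of this pair in NTM roots and *ERF5* in TM roots. Reads of close relatives can be split between them in an alignment to another species, and this was not tested. The cytokinin response factor genes named by the paper differed in direction too, with *CRF7* (AT1G22985) at 3.27 FPKM in TM roots and 32.7 FPKM in NTM roots (log2 ratio -2.98) and *CRF10* (AT1G68550) at 13.7 FPKM in TM roots and 5.71 FPKM in NTM roots (log2 ratio 1.13).

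A wider set of regulators that answer quickly to touch, wounding and cold was lower in the TM ecotype as well. Of 21 such genes 14 were listed, 13 lower in TM roots (median of the listed genes -1.09). Both thresholds were met by 7, all lower, which is 50% of those listed beside 21.9% lower in the table. After the median scaling 3 were past the thresholds on the lower side and 1 on the higher, and *WRKY33* and *MYB15* turned direction. The zinc finger genes *ZAT10* (AT1G27730, chromosome 1 from 9648141 to 9649073) and *ZAT6* (AT5G04340) had the largest differences. *ZAT10* stood at 77.0 FPKM in TM roots and 293 FPKM in NTM roots (log2 ratio -1.92), and *ZAT6* at 66.2 FPKM in TM roots and 238 FPKM in NTM roots (log2 ratio -1.83). The calmodulin-like gene *TCH2* (AT5G37770), first known for its induction by touch, had 41.1 FPKM in TM roots and 93.8 FPKM in NTM roots (log2 ratio -1.17).

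The cold regulators *CBF2* (AT4G25470) and *CBF3* (AT4G25480) are neighbours and close copies of each other. *CBF2* stood at 6.60 FPKM in TM roots and 17.3 FPKM in NTM roots (log2 ratio -1.27), and *CBF3* at 2.80 FPKM in TM roots and 10.5 FPKM in NTM roots (log2 ratio -1.59). *WRKY75* (AT5G13080), a factor of phosphate starvation and senescence, had 4.15 FPKM in TM roots and 12.0 FPKM in NTM roots (log2 ratio -1.33), and *WRKY70* (AT3G56400), a factor of salicylic acid defence, had 5.02 FPKM in TM roots and 11.1 FPKM in NTM roots (log2 ratio -1.01). The only listed gene of the set with the higher value in the TM ecotype was *WRKY22* (AT4G01250), at 0.86.

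Heat shock genes were listed for 6 of 16, with 5 higher and 1 lower in the TM ecotype. The chaperone gene *HSP70* (AT3G12580) had 284 FPKM in TM roots and 123 FPKM in NTM roots (log2 ratio 1.197). Small heat shock proteins differed in direction, with *HSP17.6A-CI* (AT1G59860) at 14.4 FPKM in TM roots and 4.69 FPKM in NTM roots (log2 ratio 1.43) and *HSP17.6B* (AT2G29500) at 10.5 FPKM in TM roots and 29.4 FPKM in NTM roots (log2 ratio -1.40). These 2 genes belong to the same class of the family. Past both thresholds were 2 higher genes and 1 lower, 50% of those listed beside 38.4% of the table. After the median scaling 4 higher and 0 lower were past them.

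The list of drought, cold and abscisic acid genes also split, and genes of these functions outside the list were not counted. Of 21 genes 8 were listed, 5 higher and 3 lower in TM roots. The dehydrin gene *RAB18* (AT5G66400, chromosome 5 from 26518277 to 26519242), induced by abscisic acid, stood at 90.9 FPKM in TM roots and 26.2 FPKM in NTM roots (log2 ratio 1.76). A further dehydrin gene, *XERO1* (AT3G50980), had 17.2 FPKM in TM roots and 5.31 FPKM in NTM roots (log2 ratio 1.53), and the abscisic acid response factor gene *ABF3* (AT4G34000) had 101 FPKM in TM roots and 48.1 FPKM in NTM roots (log2 ratio 1.06). The dehydrin gene *COR47* (AT1G20440) was lower, with 50.8 FPKM in TM roots and 139 FPKM in NTM roots (log2 ratio -1.43), as was the drought-induced gene *ATDI21* (AT4G15910), with 11.6 FPKM in TM roots and 40.4 FPKM in NTM roots (log2 ratio -1.72). *RD29B* (AT5G52300), also induced by drought, missed the ratio threshold, with 24.8 FPKM in TM roots and 12.4 FPKM in NTM roots (log2 ratio 0.95). Past both thresholds were 3 higher and 2 lower, 62.5% of those listed beside 38.4% of the table. The median scaling gave 5 higher and 1 lower past them.

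In secondary metabolism the phenylpropanoid list had 7 of 24 genes listed, with a split by branch. The flavonoid genes *F3'H* (AT5G07990), *DFR* (AT5G42800) and *LDOX* (AT4G22880), which lead to anthocyanins, had the higher values in the TM ecotype. *F3'H* stood at 23.8 FPKM in TM roots and 6.91 FPKM in NTM roots (log2 ratio 1.65), *DFR* at 13.2 FPKM in TM roots and 5.22 FPKM in NTM roots (log2 ratio 1.19), and *LDOX* at 27.7 FPKM in TM roots and 12.5 FPKM in NTM roots (log2 ratio 1.09). The entry enzyme gene *PAL2* (AT3G53260) was lower, with 136 FPKM in TM roots and 332 FPKM in NTM roots (log2 ratio -1.29), as was the lignin peroxidase gene *PRX72* (AT5G66390), with 29.7 FPKM in TM roots and 93.8 FPKM in NTM roots (log2 ratio -1.62). The genes past both thresholds were 71.4% of those listed, beside 38.4% of the table. After the median scaling 4 genes of the list were past both thresholds on the higher side and 0 on the lower.

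Of 34 glucosinolate genes 6 were listed, and the 2 past both thresholds act on breakdown products. These 2 were 33.3% of those listed, beside 38.4% of the table. *NSP5* (AT5G48180), a nitrile-specifier protein, had 189 FPKM in TM roots and 51.5 FPKM in NTM roots (log2 ratio 1.86). *ESM1* (AT3G14210), which favours isothiocyanates over nitriles in *A. thaliana*, had 241 FPKM in TM roots and 654 FPKM in NTM roots (log2 ratio -1.44). The synthesis gene *SUR1* (AT2G20610) was under the threshold, with 677 FPKM in TM roots and 369 FPKM in NTM roots (log2 ratio 0.87). The median scaling gave 4 higher and 0 lower past both thresholds.

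Of 27 jasmonate and defence genes 10 were listed, 5 in each direction (6 higher and 4 lower under the median scaling, which turned *PR4* and gave 5 higher and 3 lower past both thresholds, in place of 1 and 3). Without that scaling, the genes past both thresholds were 40% of those listed, beside 38.4% of the table. *PDF1.1* (AT1G75830, chromosome 1 from 28472357 to 28472891), a plant defensin, was at 7.22 FPKM in TM roots and 93.9 FPKM in NTM roots (log2 ratio -3.53), the largest difference of any listed gene of the lists. The storage protein genes *VSP1* (AT5G24780) and *VSP2* (AT5G24770), jasmonate-inducible close copies, were lower too. *VSP1* stood at 4.965 FPKM in TM roots and 18.24 FPKM in NTM roots (log2 ratio -1.69), and *VSP2* at 6.84 FPKM in TM roots and 27.9 FPKM in NTM roots (log2 ratio -1.88). *LOX3* (AT1G17420), a lipoxygenase of jasmonate synthesis, was higher, with 24.45 FPKM in TM roots and 8.999 FPKM in NTM roots (log2 ratio 1.35). None of the listed clock and flowering genes (3 of 21) or auxin genes (2 of 9) met both thresholds. After the median scaling 2 and 1 of them did, on the higher side, and the auxin influx gene *AUX1* (AT2G38120) turned direction under the median scaling.

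Markers of other tissues were looked at beside these values. Of 42 nuclear photosynthesis genes, which mark green tissue, 8 were listed, 7 of them lower in TM roots, and their summed level was 89.4 FPKM in TM roots and 223 FPKM in NTM roots, with 0 of the 8 at 0. The antenna protein gene *LHCB1.2* (AT1G29910) had the highest of these levels, 26.7 FPKM in TM roots and 88.8 FPKM in NTM roots. *SBPASE* (AT3G55800), an enzyme of carbon fixation, went the other way with 9.96 FPKM in TM roots and 1.89 FPKM in NTM roots. Past both thresholds were 0 higher and 3 lower, 37.5% of those listed beside 38.4% of the table. After the median scaling 1 higher and 2 lower were past them. Whether green tissue takes part in the values of other genes lower in the TM ecotype was not tested.

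Markers of root cell types were listed for 3 of 8 genes of root hairs and epidermis, 3 of 5 of the endodermis, 1 of 6 of the xylem, and none of the 2 phloem and 2 root cap genes. *RSL4* (AT1G27740), a factor that drives root hair growth, stood at 12.9 FPKM in TM roots and 1.37 FPKM in NTM roots (log2 ratio 2.55). The root hair wall genes *PRP3* (AT3G62680) and *EXPA18* (AT1G62980) went the other way. *PRP3* had 18.1 FPKM in TM roots and 47.7 FPKM in NTM roots (log2 ratio -1.35), and *EXPA18* had 5.47 FPKM in TM roots and 14.3 FPKM in NTM roots (log2 ratio -1.24). All 3 met both thresholds, beside 38.4% of the table. After the median scaling *RSL4* alone of these was past both thresholds. The 3 endodermal markers were lower in TM roots, in the direction of the barrier genes and with a median log2 ratio of -0.81 (-0.11 after the median scaling, with 0 past both thresholds), and the part of endodermal cell number in those values was not tested. Genes of the mitochondrial and plastid genomes made up 4 of the 1712 genes, at up to 37.8 FPKM.

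The largest ratios with both values above 0 belonged to genes outside these lists. AT5G06760 stood at 273 FPKM in TM roots and 14.1 FPKM in NTM roots, and AT3G25480 at 138 FPKM in TM roots and 6.99 FPKM in NTM roots. In the other direction AT3G05450 stood at 0.323 FPKM in TM roots and 28.0 FPKM in NTM roots, and AT3G02080 at 9.22 FPKM in TM roots and 218 FPKM in NTM roots. The files do not pair these identifiers with names, and whether any shares a function of the lists was not looked at. Their log2 ratios were 4.18, 4.12, -4.46 and -4.42.

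A level listed at 0 in the NTM ecotype occurred for 16 of the 734 genes higher in the TM ecotype, and at 0 in the TM ecotype for 20 of the 978 lower ones. These 36 genes have no fold change, and their loci were short, with 16 of 16 and 16 of 20 under 500 bp. Such short loci accounted for 7.22% of the genes higher and 6.03% of those lower in the TM ecotype, beside 0.546% of the 2748 listed genes that missed a threshold. The median locus length was 1595.5 bp for the genes higher and 1531.5 bp for the genes lower in the TM ecotype, beside 2127.5 bp for those that missed a threshold. What the short loci contribute to the ratios was not tested.

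On the *A. thaliana* chromosomes the genes past both thresholds made up 35.4% (chromosome 3) to 41.9% (chromosome 4) of the listed genes of each chromosome. Of 284 neighbouring pairs with starts within 10000 bp, 168 (59.2%) had the same direction. Among all genes past both thresholds 42.9% were higher and 57.1% lower, so many pairs would share a direction without any grouping. The share for pairs drawn without regard to position was not worked out. The longest run in 1 direction held 4 genes, on chromosome 1 from 8195776 to 8207618, all lower in the TM ecotype.

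The same genes were set beside the Ni-treated roots, which are other libraries, scaled in a separate table that again lists only genes of the authors' own selection. Of the 734 genes higher in the TM ecotype without Ni 227 (30.9%) were listed with Ni, 225 of them in the same direction. Of the 978 genes lower in the TM ecotype 436 (44.6%) were listed with Ni, 432 in the same direction. Listed genes that missed a threshold without Ni were found in the Ni table in 17% of cases. Their directions there were not counted, so the agreement in direction cannot be called particular to the genes past both thresholds. For the genes in both tables, the median log2 ratio was 1.67 with Ni and 1.38 without Ni on the TM-higher side, and -1.71 with Ni and -1.52 without Ni on the TM-lower side.

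**Figure D4:**
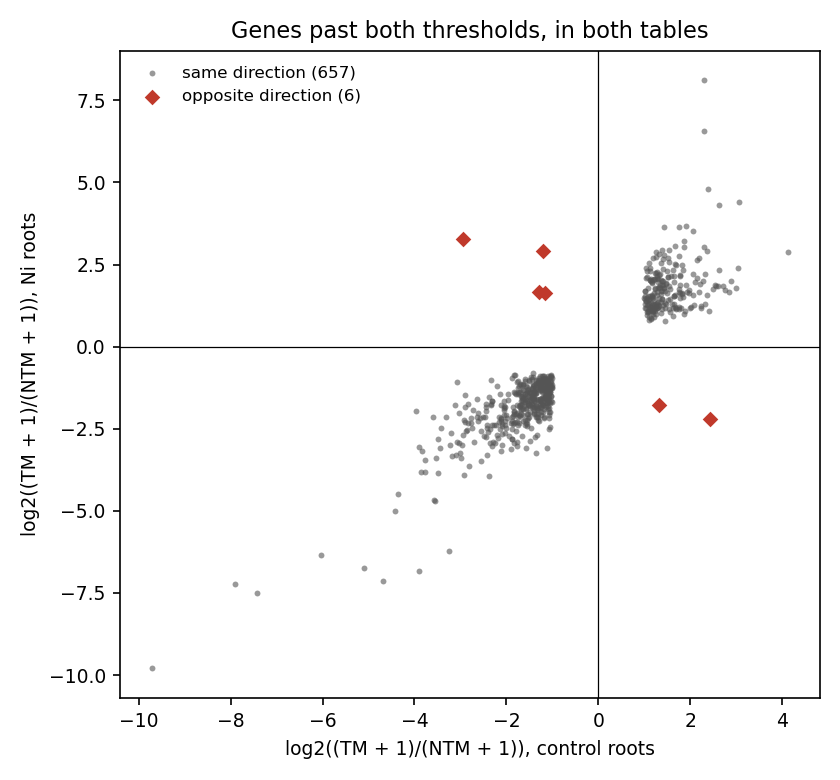
Log2 ratio of TM over NTM with Ni (vertical axis) against the same ratio without Ni (horizontal axis), with 1 FPKM added to each value, for the 663 genes past both thresholds without Ni that were also listed with Ni. Grey points are the 657 genes with the same direction in both tables and red diamonds the 6 with opposite directions. The band without points around 0 comes from the thresholds on the horizontal axis and from the authors' selection on the vertical axis.

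Among the named genes, *HMA4* stood with Ni at 41.1 FPKM in TM roots and 17.8 FPKM in NTM roots, and *CASP5* at 3.59 FPKM in TM roots and 27.2 FPKM in NTM roots. *ESB1*, *GPAT5* and *MYB93* were also lower in TM roots with Ni, with log2 ratios of -1.65, -1.13 and -1.52. The values of *TIP2;2* with Ni were 154 FPKM in TM roots and 739 FPKM in NTM roots. *RAB18*, *APX1* and *CSD2* were also higher with Ni, with ratios of 1.67, 1.21 and 0.79. *HMA2*, *IREG1*, *IREG2* and *CAX1* were not listed with Ni, which says nothing of their levels there.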

How the data were processed

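RNA-seq libraries of *N. goesingensis* roots were available as 4 TM control, 3 NTM control, 2 TM Ni and 3 NTM Ni samples, grouped by the sample titles. According to the methods and the submitters' processing notes, the authors trimmed reads with cutadapt 1.8.1, aligned them with HISAT2 2.1.0 to the *A. thaliana* genome (TAIR 10), and computed levels and tests with Cuffdiff of Cufflinks 2.2.1. The deposited levels are FPKM, scaled between libraries by the geometric method, with 1 value for each group. The column header reads TPM where the methods give FPKM, which was not settled. Alignment to another species limits each level to the reads that align, so a difference in sequence between the populations could enter a ratio.

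The deposited tables also hold a log2 fold change and a p-value of the authors' own comparison of the ecotypes. These were not used, except to see that all 4460 genes without Ni and all 1944 with Ni have a p-value under 0.05. Group files and comparison tables had 0 differing values, and the files held 0 further columns of values for single samples. Log2 ratios were formed from the group values with a pseudocount of 1 FPKM. The rule for named genes took the genes of the paper, the members of each list with the largest ratios, the highest levels, and the extremes of the table, of which 4 identifiers are printed. Other listed genes of the lists were named after their values were seen. Gene names beyond those in the paper are general knowledge and were not checked against an annotation, and 1 gene of the lists is not reported here by name. The members and lists were chosen with earlier results of these data known. The rule was run on simulated levels without noise, with planted differences well past both thresholds. Its result was fixed by that setting, so the run checks only the arithmetic of the rule. How error in the single group values affects which genes are past both thresholds was not tested. Locus starts were deposited counting from 0 and are printed counting from 1. Python 3.11.15, numpy 2.4.6, pandas 2.3.3 and matplotlib 3.10.9 were used.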

Additional observations from a re-analysis of the deposited data

Results flagged for a closer look

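The ecotype difference had opposite directions without and with Ni for 6 of the 663 genes past both thresholds without Ni that were listed in both tables. With Ni, 4 of them were higher and 2 lower in the TM ecotype. With single group values, the difference between the states was not tested.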

How the results depend on the processing

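Setting the median TM over NTM ratio of the table to 1 gave 1777 genes higher and 326 lower in the TM ecotype, 15.5% lower in place of 57.1%. The median lies among the lower genes, so the direction of this change was fixed in advance. Under this scaling 242 of the 4460 listed genes turned direction, all with a ratio under 1 in size, 11 of them named. At a log2 ratio of at least 2, 110 genes were higher and 192 lower, 150 kept their direction with Ni, and the median locus of the higher genes was 898 bp. At a level of at least 50 FPKM, 216 were higher and 324 lower, and 307 kept their direction with Ni. A pseudocount of 5 FPKM gave 469 higher. The other whole-table counts and median lengths under these settings, and all of them under a pseudocount of 0.1 FPKM, a minimum level of 1 FPKM, no filter, loci of at least 500 bp, genes at 0 left out, or organelle genes left out, stayed within 1.5 times. Counts within single lists, most of them small, moved more. Of 44 such counts, 27 changed by over 1.5 times under the median scaling, 24 at a ratio of at least 2, 16 at a level of at least 50 FPKM, 6 at a pseudocount of 5 FPKM, 4 at a minimum level of 1 FPKM and again with no filter, and 2 at a pseudocount of 0.1 FPKM. At a pseudocount of 5 FPKM the metal transport list had 3 higher and 0 lower, the iron list 0 higher and the rapid response list 3 lower, and at 0.1 FPKM the iron list had 4 higher. No library could be left out, and no paired analysis was possible because the files hold 1 value per group. The number of reads behind each gene's value is unknown, so low levels carry an unknown counting error.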
